A study of Homo sapiens with 2 samples.

Results

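The regions described here are ATAC-seq peaks whose summit lay inside an exon of a protein-coding gene and more than 1000 bp from every annotated transcript start. ATAC-seq marks open chromatin by the places where the transposase Tn5 inserts sequencing adapters. On chromosomes 1 to 22 and X, the rule chose 1427 of 67868 peaks (2.1%) in the No gRNA library and 1372 of 68238 peaks (2.01%) in the All gRNA library. Merged where they overlapped, they formed 1891 sites in 1655 host genes. Both libraries came from SUM159, a widely used cell line of mesenchymal, claudin-low breast cancer, and both cell populations were transduced with the lentiviral pLV vector for dCas9-KRAB and selected with puromycin. The dCas9-KRAB protein is a cleavage-dead Cas9 fused to a repressor domain. No gRNA cells carried the vector with no targeting guide, and All gRNA cells carried 4 guides to the ZEB1 promoter. Each group held 1 library of a transduced population, so differences are between these libraries, no test between conditions was possible, and no p-value is given.

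Exons are mostly read as coding or untranslated sequence, yet the same DNA can lie in open chromatin and be bound by transcription factors. Accessible sites far from promoters are usually enhancers or insulators, and some lie in coding exons or in the long last exons that hold 3′ untranslated regions (UTRs). AP-1, the JUN and FOS family of factors, opens many such sites in mesenchymal breast cancer cells. CTCF marks insulators, and ZEB1, the repressor targeted here, binds E-boxes with the core CAGGTG.

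Sequences are shown first because the results return to them. One set holds the strongest shared peaks in coding internal exons of up to 250 bp, by the mean fold of both libraries. The exon is in capitals, with 10 intron bases on each side in lower case, 5′ to 3′ on the strand of the gene (hg38).
SUMF1 exon 6, chr3:4417118-4417252, minus strand: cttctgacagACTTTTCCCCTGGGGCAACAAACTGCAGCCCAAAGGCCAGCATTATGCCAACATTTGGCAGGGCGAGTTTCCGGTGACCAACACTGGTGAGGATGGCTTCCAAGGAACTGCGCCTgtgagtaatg
PACSIN1 exon 3, chr6:34527322-34527498, plus strand: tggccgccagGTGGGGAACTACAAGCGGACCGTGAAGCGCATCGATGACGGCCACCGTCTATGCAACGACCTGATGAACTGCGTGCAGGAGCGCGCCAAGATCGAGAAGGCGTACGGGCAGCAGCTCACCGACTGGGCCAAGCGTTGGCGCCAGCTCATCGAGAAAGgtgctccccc
SH3BP5 exon 4, chr3:15269703-15269887, minus strand: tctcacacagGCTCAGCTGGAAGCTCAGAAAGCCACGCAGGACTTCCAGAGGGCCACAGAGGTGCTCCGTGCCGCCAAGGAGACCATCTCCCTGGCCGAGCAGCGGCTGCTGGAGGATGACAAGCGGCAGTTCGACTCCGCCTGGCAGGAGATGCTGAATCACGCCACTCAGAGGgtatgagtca
SUMF1, which activates sulfatases, had its summit at base 54 of the 115 bp exon 6 of 9, and both peaks covered the exon whole. In PACSIN1, a membrane-bending protein of endocytosis, an E-box lies across the 5′ edge of exon 3 of 10, where intron and exon join. SH3BP5 encodes a regulator of JNK signalling, and its 165 bp exon 4 of 9 was also covered whole in both libraries.

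Another set holds the strongest shared peaks that held an AP-1 match (TGANTCA) or a CTCF match within 100 bp of the summit, by −log10 q, as 30 bases around the match nearest the summit, on the strand of the match, with the match in capitals. The CTCF core was searched under its name, on both strands.
HMGXB3, chr5:150036776-150036805, plus strand: ggtcttcgcctTGATTCAtgaactcaacag
SH3BP5, chr3:15269715-15269744, plus strand: tctgagtggcgTGATTCAgcatctcctgcc
WDR35, chr2:19911988-19912017, plus strand: tttcatctgatTGAGTCAtctggctcaagc
ATOH8, chr2:85772547-85772576, minus strand: gggaatgtgCCAGCAGAGGGCcgggcgggc
C17orf50, chr17:35764221-35764250, plus strand: gtccagcacCCAGCAGGTGGCgctgctgcg
ACE, chr17:63479067-63479096, minus strand: gtccagggaCCAGCAGGTGGCagtcttgtt
HMGXB3, SH3BP5, C17orf50 and ACE held their matches in peaks of coding exons, WDR35 in a 3′ UTR, and ATOH8 in the last exon of a non-coding transcript.

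The last set holds the strongest peaks of 1 library only, with CTCF matches for No gRNA and E-boxes (CAGGTG) for All gRNA. A CTCF match can contain an E-box, as in ZC3H10 and SBK1.
ZC3H10, chr12:56126333-56126362, plus strand: tgcttatcaCCACCAGGTGGCacctgggca
SBK1, chr16:28321913-28321942, plus strand: cctgggcttCCAGCAGGTGGCgagctggtt
UTRN, chr6:144482280-144482309, minus strand: aactcctggCCACCAGAGGGCaccttggca
MYO5C, chr15:52229190-52229219, plus strand: ctccccctccacCAGGTGttggagttgcat
SEPTIN14, chr7:55794779-55794808, plus strand: tagcagggactaCAGGTGcacaacaccaca
FBXO21, chr12:117155430-117155459, plus strand: ctagggggccccCAGGTGttcatccggttc
UTRN and MYO5C held them in peaks of coding exons, and the other 4 in peaks of 3′ UTRs.

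The depth of the All gRNA library was 0.743 times that of No gRNA, as recovered from the lowest backgrounds of the peak caller (0.484375 and 0.651816). At the ZEB1 promoter, the targeted region, No gRNA had 3 peaks within 1000 bp of a start with a highest summit pileup of 27 reads, and All gRNA had 1 peak with 9 reads. The promoter of VIM, a mesenchymal marker, had a highest pileup of 102 reads in No gRNA and 62 in All gRNA. CDH1, which encodes E-cadherin, had no promoter peak in either list. Neither ZEB1 nor ZNF10, the source of the KRAB domain and thus a gene whose counts could hold vector reads, had an exonic peak away from starts.

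Exonic peaks were about as frequent per base as intronic ones. Over the 70.7 Mb of exon that lay more than 1000 bp from every start, No gRNA had 20.2 summits per Mb (95% exact Poisson interval 19.1 to 21.2) and All gRNA had 19.4 (18.4 to 20.4). Introns had 19.2 per Mb (19 to 19.5) in No gRNA and 19.3 (19 to 19.6) in All gRNA, and sequence outside protein-coding genes had 14.9 and 15.4. Within canonical transcripts, coding sequence had 17.5 and 17.4 summits per Mb and 3′ UTRs had 20 and 19.1. The 5′ UTRs had 39 (21.9 to 64.4) in No gRNA and 23.4 in All gRNA, with wide intervals over 0.384 Mb of eligible sequence. These intervals, like all others here, cover counting error only.

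Most exonic peaks lay in last exons. In No gRNA 981 of 1427 (68.7%) were in a last exon, 385 (27%) in an internal exon, 36 (2.52%) in a first exon and 25 (1.75%) in a single-exon transcript. All gRNA had 926 (67.5%), 391 (28.5%), 33 (2.41%) and 22 (1.6%). By part of the transcript, 772 No gRNA and 737 All gRNA peaks (54.1% and 53.7%) were in 3′ UTRs, 395 and 396 (27.7% and 28.9%) in coding sequence, 39 and 30 in 5′ UTRs, and 221 and 209 in exons of transcripts with no coding sequence. Last exons made up 34.9 of the 52.5 Mb of eligible canonical exon, and their density in canonical transcripts was 20 per Mb (18.5 to 21.5) for No gRNA, against 17.8 (15.8 to 19.9) for internal exons, so the intervals overlapped. In All gRNA these densities were 18.7 and 18.2 per Mb. Of the exonic peaks, 261 in No gRNA and 249 in All gRNA lay in no exon of a protein-coding transcript. They lay in exons of other transcript types, such as retained introns. The summit lay in an exon of a canonical transcript for 1005 No gRNA and 966 All gRNA exonic peaks (70.4% in each). The rest lay only in exons of other transcripts. Whether these fell in an intron of the canonical transcript or beyond its ends was not checked.

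The peaks did not follow exon boundaries. Both edges lay within 20 bp of the exon edges in 5 No gRNA and 4 All gRNA peaks. In internal exons, whose median length was 174 bp in the No gRNA set and 167 bp in the All gRNA set, 52.2% of peaks covered the whole exon in each library. In last exons, with medians of 3069 and 3046 bp, 82.3% and 83.9% of peaks lay wholly inside. Among canonical last exons of at least 3000 bp, the summits were spread along the exon: from the 5′ end, equal parts of the length held 32.1%, 34.8% and 33.1% of 414 No gRNA summits and 30.8%, 34.9% and 34.4% of 393 All gRNA summits. The median distance to the nearest transcript start was 5360 bp in No gRNA and 5507 bp in All gRNA.

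The heights were close to those of intronic peaks. The fold, which is the authors' enrichment of the summit over the local background, had a median of 7.87 in No gRNA (quartiles 6.05 and 11.5) and 7.07 in All gRNA (5.39 and 9.88). Intronic peaks had medians of 7.89 and 7.07, and peaks within 1000 bp of a start had 11 and 9.59. The median summit pileup, in reads, was 16 in No gRNA and 12 in All gRNA, and the median width was 307 and 287 bp. Coding exonic peaks had median folds of 8.48 and 7.39, a mean GC content of 53.8% and 53.1%, and 7.94 and 7.34 CpG per 201 bp summit window. Peaks in 3′ UTRs had median folds of 7.87 and 6.97, GC of 47.2% and 47.7%, and 3.32 and 3.49 CpG. Just inside the distance limit, at 1001 to 1500 bp from a start, 145 No gRNA and 144 All gRNA peaks had median folds of 7.46 and 6.74, and just outside it, at 501 to 1000 bp, 285 exonic peaks in each library had 7.17 and 6.47.

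The 6 host genes with the highest shared peaks, by the mean of both folds, were NEK10, SCLY, HMGXB3, SUMF1, PACSIN1 and NCKAP1. NEK10, a NIMA-related kinase, had a fold of 24.1 in No gRNA (94 reads) and 26.7 in All gRNA (78 reads), in the last exon of a retained-intron transcript. SCLY, selenocysteine lyase, had 26.5 (121 reads) and 24.2 (71 reads) in its 3′ UTR, a position that is also exonic in the readthrough gene UBE2F-SCLY. HMGXB3, an HMG-box protein, had 26.8 (116 reads) and 23.8 (75 reads) in coding exon 12 of 20, near the AP-1 match shown above.
SUMF1 had a fold of 23.4 (104 reads) and 21.4 (71 reads), and PACSIN1 had 21.9 (63 reads) and 20.6 (43 reads). NCKAP1, a subunit of the WAVE actin-regulatory complex, had 22 (71 reads) and 20.5 (49 reads) in a 16704 bp last exon. After scaling for depth, the All gRNA to No gRNA ratios of these 6 ran from 0.79 (0.581 to 1.07) at SCLY to 1.12 (0.816 to 1.52) at NEK10, and all 6 intervals included 1. By exon class, the highest shared peak in a last coding exon was in GTF2E1, a subunit of the general transcription factor TFIIE, with folds of 23.2 and 18.9. The highest in a first exon was in KDM2B, a CpG-binding histone demethylase, with 21 and 20.3, in a retained-intron transcript and with 27 CpG in its window.

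Of the No gRNA exonic peaks, 971 of 1427 overlapped an All gRNA peak (68%, 95% Clopper-Pearson interval 65.6 to 70.5), and 456 (32%) did not, against 24.7% of all No gRNA peaks. Of the All gRNA exonic peaks, 991 of 1372 (72.2%, 69.8 to 74.6) overlapped and 381 (27.8%) did not, against 23.8% of all All gRNA peaks. Peaks near starts, which are part of that background, were shared in 85.2% and 90.2%, and intronic peaks in 70.7% and 71.2%. Sharing followed strength. Over 5 classes of −log10 q, in the weakest 34.5% (29.3 to 40) of No gRNA and 39.6% (34.3 to 45.1) of All gRNA exonic peaks were shared, and in the strongest 99.4% and 100.0%. Intronic peaks of the same classes were shared in 40.6% and 41% of the weakest and 99.7% and 99.9% of the strongest. The shared part of last-exon peaks was 66.9% in No gRNA but 74.3% in All gRNA, and that of internal-exon peaks was 71.9% and 68.3%.

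**Figure D1:**
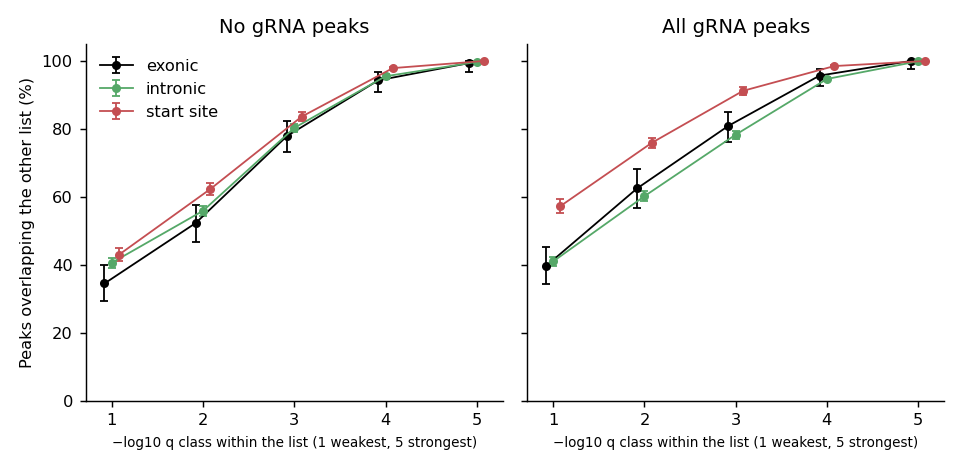
Share of peaks that overlap a peak of the other library by at least 1 bp (y axis, %), by class of −log10 q within each list (x axis, 1 weakest to 5 strongest), for exonic, intronic and start-site peaks. Bars are 95% Clopper-Pearson intervals; exonic peaks go from 34.5% to 99.4% in No gRNA and from 39.6% to 100.0% in All gRNA.

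The 5 strongest exonic peaks of No gRNA alone were in MCPH1, PTGS1, BFSP1, AKIP1 and SIRT3. MCPH1, a DNA damage response protein, had 59 reads and a fold of 11.4 in its 3′ UTR. PTGS1, the cyclooxygenase COX-1, had 25 reads and a fold of 14.1, also in a 3′ UTR. BFSP1, a lens filament protein, had 39 reads, AKIP1 had 25, and SIRT3, a mitochondrial deacetylase, had 22. The 5 strongest of All gRNA alone were in PRRG1 (23 reads, fold 14.6), BLACAT1 (19 reads, fold 10.4), SPIDR (32 reads, fold 6.57), STXBP4 (16 reads, fold 10.6) and MINAR1 (18 reads, fold 10.1), all in 3′ UTRs. SPIDR encodes a scaffold of homologous recombination. A peak missing from 1 list passed no threshold there, which does not give its read count. The median pileup was 11 reads over the No gRNA only sites and 8 over the All gRNA only sites.

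A site counted as shared when its peaks overlapped and at least 1 summit was exonic. Of the 1054 shared sites, 886 had an exonic summit in both libraries, 81 in No gRNA alone and 87 in All gRNA alone. At the 1005 shared sites with a single partner peak, summit pileups were compared after scaling for depth. The median All gRNA to No gRNA ratio was -0.13 on the log2 scale, and -0.11 over all 48041 such peaks. A site was called where the ratio was beyond 2-fold and its 95% interval excluded 1. Both ends of a fragment can be counted in a pileup, so the intervals of the ratios may be too narrow. By that rule 28 exonic sites (2.79%) were higher in All gRNA, against 2.44% of all peaks, and 36 (3.58%) were lower, against 3.27% of all peaks, so both counts were near the background. With the median ratio as the scale instead, 37 were higher (3.68%, against 3.3% of all peaks) and 24 lower (2.39%, against 2.05%), so the direction of the majority depends on the scaling while both counts were again near those of all peaks. Of the 28 higher sites, 14 were in internal and 13 in last exons, and of the 36 lower sites, 9 were in internal and 27 in last exons. Of all 1005 sites, 31.3% were in internal and 65% in last exons, and the difference between higher and lower sites was not tested. The median log2 ratio went from 0.05 in the weakest class to -0.30 in the strongest among exonic sites, and from 0.11 to -0.24 among all peaks.

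**Figure D2:**
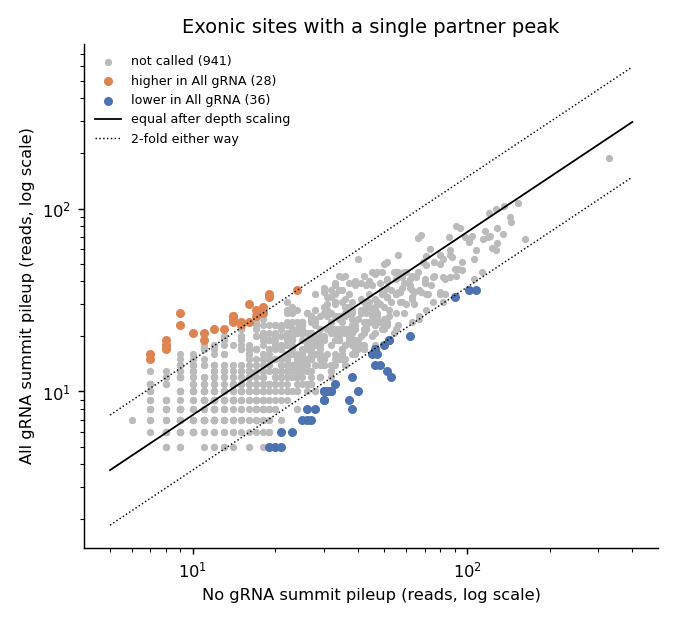
Summit pileup in reads of the 1005 shared exonic sites with a single partner, No gRNA on the x axis and All gRNA on the y axis, both on log scales. The solid line marks equal height after depth scaling and the dotted lines 2-fold either way; 28 sites called higher in All gRNA lie above and 36 called lower lie below.

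EFCAB12, an EF-hand protein, had the highest ratio among the called sites: 9 reads in No gRNA and 27 in All gRNA, with a ratio of 4.04 (1.84 to 9.76), in an exon of a retained-intron transcript. SERAC1, which acts in phospholipid remodelling, had 9 and 23 reads, a ratio of 3.44 (1.53 to 8.44). Only its All gRNA summit lay in coding exon 8 of 17. RYR3, an intracellular calcium channel, had 8 and 19 reads, a ratio of 3.2 (1.34 to 8.44). Of its summits, only that of All gRNA lay in coding exon 42 of 104. KCNC4, a voltage-gated potassium channel, had a ratio of 3.08 (1.2 to 8.84) in the 3′ UTR of a transcript that is not the canonical one. RAB30, a Golgi GTPase, had a ratio of 3.03 (1.25 to 8.05) in its 3′ UTR. The No gRNA pileups of these 5 were between 7 and 9 reads, so the intervals are wide.
P4HA2, a collagen prolyl hydroxylase subunit, had the lowest ratio: 38 reads in No gRNA and 8 in All gRNA, with a ratio of 0.283 (0.114 to 0.616), in the 3′ UTR. IYD, which recycles iodide from iodotyrosine, had 53 and 12 reads in its 3′ UTR, a ratio of 0.305 (0.148 to 0.578). CLIP1, a microtubule plus-end protein, had 37 and 9 reads, a ratio of 0.327 (0.139 to 0.691). Its All gRNA summit lay in coding exon 18 of 26, and its No gRNA summit was not exonic. PLD1, a phospholipase, and MDFIC, a MyoD family inhibitor domain protein, had ratios of 0.32 (0.0944 to 0.873) and 0.336 (0.0987 to 0.924), with 5 reads in All gRNA at each. Of the lower sites, ANXA5, encoding the phospholipid-binding annexin A5, had the most reads, 108 in No gRNA and 36 in All gRNA, with a ratio of 0.449 (0.299 to 0.66). Of its summits, only that of All gRNA met the rule, in the last coding exon. ANXA5 was chosen after its values were seen.

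Motif matches were counted within 100 bp of the summits. AP-1 matches were in 32.8% (30.4 to 35.3) of No gRNA and 33.2% (30.7 to 35.7) of All gRNA exonic peaks, below the 39.3% and 40.1% of intronic peaks. Exonic peaks were richer in GC (means 49.1% and 49.3% against 45.4% and 45.3%), and in peaks of 40 to 50% GC the AP-1 shares were 38.9% (34.8 to 43.2) against 41.3% in No gRNA and 40% against 42.3% in All gRNA, with overlapping intervals. Above 60% GC they were 13% (8.98 to 18.1) against 21.6% (19.3 to 23.9) and 13% (8.94 to 18) against 21% (18.8 to 23.4), and did not overlap. Shared exonic peaks held AP-1 in 36% (33 to 39.2) of No gRNA cases and one-library peaks in 25.9% (21.9 to 30.2). In All gRNA these were 34.6% (31.6 to 37.7) and 29.4% (24.9 to 34.2), with overlapping intervals. GC boxes (GGGCGG), the site of SP factors, were in 9.88% and 11.3% of exonic peaks against 5.35% and 5.13% of intronic ones. At 50 to 60% GC the GC box shares were 10.9% against 9.47% in No gRNA and 12.1% against 9.49% in All gRNA, where the intervals overlapped. TEAD matches (ACATTCC) were in 4.56% and 5.03% of exonic peaks against 5.73% and 5.34% of intronic ones, with overlapping intervals.

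CTCF matches were in 4.27% (3.29 to 5.46) of No gRNA and 3.13% (2.28 to 4.2) of All gRNA exonic peaks, against 1.85% (1.67 to 2.04) and 1.67% (1.5 to 1.85) of intronic peaks and 2.02% and 1.77% of all peaks. At like GC in No gRNA, the intervals were apart in 1 of 4 classes, with 3.11% (1.82 to 4.93) against 1.36% (1.14 to 1.62) at 40 to 50% GC. They overlapped below 40% (1.02% against 0.611%), at 50 to 60% (6.16% against 3.45%) and above 60% (8.26% against 5.98%). In All gRNA the 4 classes had 1.49% against 0.585%, 1.97% against 1.32%, 4.11% against 3.14% and 6.06% against 4.59%, with overlapping intervals. Among No gRNA exonic peaks, CTCF matches were in 7.24% (5.03 to 10) of the 456 without an All gRNA partner and 2.88% (1.92 to 4.14) of the 971 shared ones. Intronic peaks of No gRNA had 2.6% and 1.53%. Of the 61 No gRNA exonic peaks with a CTCF match, 45.9% were shared, against 68% of all No gRNA exonic peaks. In All gRNA, 65.1% of 43 were shared, and the one-library share with a match was 3.94% (2.22 to 6.41). Examples are ZC3H10, with 49 reads and a fold of 5.83 in No gRNA, and SBK1 and UTRN, with 15 reads and a fold of 9.69 each, at the sequences shown above. At ATOH8, a basic helix-loop-helix factor gene, the peak with a CTCF match was shared, with 127 and 59 reads and a ratio of 0.625 (0.451 to 0.858). Only the All gRNA summit met the rule there. A match is a description and not a bound site.

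E-boxes were in 14.2% (12.4 to 16.1) of No gRNA and 15.5% (13.6 to 17.5) of All gRNA exonic peaks, against 10.9% and 12.4% of intronic peaks. At like GC in No gRNA, the shares were 4.78% against 4.72% below 40% GC and 8.04% against 10.3% at 40 to 50%. They were 23.2% (19 to 28) against 17.6% (16.5 to 18.8) at 50 to 60%, where the intervals were apart. Above 60% they were 26.5% against 22.4%. In All gRNA the classes had 5.58% against 5.93%, 11.6% against 11.5%, 18.4% against 20.5% and 30.7% against 24.2%, with overlapping intervals. Part of the exonic E-boxes lay at splice sites, whose usual letters can spell CAGGTG where exon and intron meet, as in PACSIN1. Of the 61 No gRNA peaks in internal exons with an E-box, 24 (39.3%) had 1 across an exon edge, and of 75 in All gRNA, 33 (44%) did. In last exons these were 5 of 132 and 6 of 126. Leaving out E-boxes across exon edges or within CTCF matches, 11.7% (10.1 to 13.5) of No gRNA and 12.5% (10.8 to 14.3) of All gRNA exonic peaks kept one, and 10.6% and 12.1% of intronic peaks, with overlapping intervals. Exonic peaks of All gRNA alone had E-boxes in 20.2% (16.3 to 24.6), and 16.8% (13.2 to 20.9) on leaving those out, against 13.6% (11.5 to 15.9) and 10.8% (8.93 to 12.9) for shared All gRNA peaks. Exonic peaks of No gRNA alone had 15.4% (12.2 to 19) against 13.6% for shared ones, and 14% (11 to 17.6) against 10.6% (8.74 to 12.7) on leaving those out, with overlapping intervals. Intronic peaks of All gRNA alone had 15.6%, against 11.2% for shared ones, and those of No gRNA alone had 10.8%, against 11%. Shared and one-library peaks were not matched for GC or strength, here or for AP-1 and CTCF. The 3 examples shown, in MYO5C, SEPTIN14 and FBXO21, had 14, 13 and 12 reads.

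The host genes mostly had an open promoter as well. Of 1278 No gRNA host genes, 79.7% (77.4 to 81.9) had a peak within 1000 bp of a start of their own, and of 1238 All gRNA host genes 77.1% (74.6 to 79.4). Genes with an intronic peak had 78.2% and 76.4%, and all protein-coding genes 67.5% and 66.7%. Hosts of exonic peaks of All gRNA alone had 69.1% (64.1 to 73.7), against 80.1% (77.3 to 82.6) for hosts of shared ones. In No gRNA these were 77% (72.8 to 80.9) and 81.2% (78.5 to 83.7), with overlapping intervals. Most hosts, 1451 of 1655, had 1 site. SH3TC2, a gene of peripheral nerve myelination, had 5 sites, all in 1 last exon of 22753 bp, and its strongest had 102 reads in No gRNA and 67 in All gRNA, with a ratio of 0.884 (0.64 to 1.21). CHRM3, a muscarinic acetylcholine receptor, had 4 shared sites with an AP-1 match at each. Of these, 1 was called lower, with 48 and 14 reads and a ratio of 0.392 (0.2 to 0.724), and the other three had ratios from 0.866 to 1.14 with intervals that included 1. DMBT1, a scavenger receptor, had 4 sites in repeated 324 bp exons that each matched at least 1 other locus, so their reads may be split among copies and the sites are uncertain. HECW2, LPP and PTPRO also had 4 sites.

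ZNF genes, a large family of zinc finger repressors many of which carry H3K9me3 over their last exons, held few exonic peaks. In No gRNA 14 of 509 were hosts (2.75%, 1.51 to 4.57) and in All gRNA 10 (1.96%, 0.946 to 3.58), against 6.4% and 6.2% of all protein-coding genes. Per Mb of eligible exon this was 7.15 (4.17 to 11.5) and 4.63 (2.31 to 8.28), against 19.7 (18.7 to 20.8) and 19 (18 to 20) over all genes. The strongest was in the last coding exon of ZNF19, with 37 and 22 reads, followed by ZNF337 with 24 and 13. ZNF219 had a peak in No gRNA alone, with 25 reads in coding exon 3 of 5, and ZNF33A had 23 and 21 reads at a site with a copy elsewhere. Clustered protocadherins, which encode neuronal adhesion proteins, had no exonic peak in 53 genes, which allows up to 17.3 per Mb. The HOX genes had none in 39, but their eligible exons come to 0.0422 Mb and allow up to 87.3 per Mb. Collagen genes were hosts in 2 of 44 in each library, with 6.92 (0.838 to 25) and 10.4 (2.14 to 30.3) peaks per Mb. COL3A1, a fibrillar collagen, had 15 and 13 reads at a site in the 54 bp exon 35 of 51, where only the All gRNA summit met the rule.

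Histone and chromatin modifiers were hosts in 12 of 81 (14.8%, 7.9 to 24.4) in No gRNA and 11 (13.6%, 6.98 to 23) in All gRNA, above the 6.4% and 6.2% of all genes. Their density, 25.3 per Mb (13.9 to 42.5) and 21.7 (11.2 to 37.9), had intervals that included the 19.7 and 19 of all genes. KMT2D, an H3K4 methyltransferase, had 23 and 27 reads in coding exon 12 of 55, a ratio of 1.58 (0.872 to 2.88). SETD7, a lysine methyltransferase, had 43 and 27 reads in the 3′ UTR of a transcript that is not the canonical one. CHD5, a chromatin remodeler, had 25 and 24 in coding exon 9 of 42. KDM2B had the most reads of the list, 135 and 73, a ratio of 0.728 (0.54 to 0.974) that was not beyond 2-fold. Among SOX, FOX, PAX, GATA and TBX factors 7 of 94 and 6 of 94 were hosts. The single exon of FOXQ1 had 56 and 22 reads at a site with more than 1 partner peak, for which no ratio was made. FOXO3 had 7 and 8 reads at a site with a copy elsewhere, and FOXB1 and SOX6 had 10 and 18 reads in No gRNA alone.

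Epithelial adhesion and polarity genes were hosts in 4 of 37 in each library (10.8%, 3.03 to 25.4), and mesenchymal genes in 2 of 29 (6.9%, 0.846 to 22.8) and 4 of 29 (13.8%, 3.89 to 31.7). All of these intervals included the share over all genes. The tight junction gene CLDN1 had 34 and 26 reads in its 3′ UTR, with a ratio of 1.03 (0.593 to 1.77). OCLN, another tight junction gene, had 28 and 19 reads in the 3′ UTR of a transcript that is not the canonical one. The OCLN site had 2 exonic peaks in All gRNA, and no ratio was made for it. ITGB4, the hemidesmosome integrin, had 17 and 8 reads, a ratio of 0.633 (0.237 to 1.55). Only its No gRNA summit lay in coding exon 28 of 40, and a CTCF match was within 100 bp of that summit. F11R, a junctional adhesion molecule, had 15 and 11 reads at a site with copies elsewhere. ZEB2, a paralog of ZEB1, had 18 and 13 reads in an exon of a retained-intron transcript, a ratio of 0.972 (0.438 to 2.1). TGFBR2 and CCN1 had peaks in All gRNA alone, with 7 and 25 reads. None of these sites with a ratio was called.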

How the data were processed

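ATAC-seq peaks of 2 libraries of SUM159 cells, 1 per group, were analysed. Per the study's methods and the labels, the authors used fastp for trimming and Bowtie2 for mapping to hg38, then filtered out mitochondrial and blacklisted reads, and duplicates with SAMtools. MACS2 called peaks per library with no control (stated shift -75 bp and extension 150 bp). The shortest peak was 200 bp in both lists, so the window behind the pileups may have been 200 bp; the ratio of the depths does not depend on it. The deposited lists give per peak the fold (a ratio of summit pileup to local background), a −log10 p, a −log10 q and a score. The deposited score was not used. By the lowest backgrounds, the depth after filtering was lower in All gRNA, and the files give no read totals. Whole-number pileups were solved from the deposited fold and −log10 p for 100.0% of peaks, a step tested on simulated data, and depth was the ratio of the lowest backgrounds.

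Exons and transcript starts came from GENCODE release 44. Each summit took 1 exon, with canonical transcripts first. Density was counted over the bases that met the rule. Motifs were searched on both strands of the 201 bp around each summit (hg38), and copies by blastn 2.17.0 (at least 95% identity over 150 bp). Shares have 95% Clopper-Pearson intervals, densities exact Poisson and pileup ratios exact binomial intervals. With 1 library per group there was no test. Python 3.11.15, pandas 2.3.3, scipy 1.17.1 and pysam 0.24.0 were used. Alternatives were other distances from starts, exon sets, −log10 q limits, overlap rules, height measures and scaling.

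The members, gene lists and tests were chosen with earlier results of these data known. Named genes were the 6 shared peaks highest by mean fold (1 per gene), the 5 strongest one-library peaks of each list by −log10 q, the 5 highest and 5 lowest called ratios, the 3 genes with most sites, the highest shared peak by exon class, up to 4 members per gene list, and ZEB1 and ZNF10. Part of these are not reported here. The genes whose sequences are shown, beyond these, were the strongest by −log10 q with the stated motif or exon class and no copy elsewhere, a choice made after seeing the data, as was the split of E-boxes by exon edge. Chromosome 8 sequences were left out.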

Additional observations from a re-analysis of the deposited data

How the results depend on the processing

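No paired analysis was possible because a group consists of 1 library alone. For the same reason no result has a replicate check. Of 58 values recomputed under the alternative settings, 45 stayed within 1.5 times a count or within the 95% interval of the reported value. The other 13 moved, and whether a value changed direction was not scored. With median ratio scaling, the sites called higher and lower went from 28 and 36 to 37 and 24. A limit of 10 on −log10 q left 858 No gRNA and 618 All gRNA exonic peaks, of which 85.4% and 93.4% were shared, and a limit of 5 put those shares at 71.2% and 82.9%; fewer weak peaks remain by construction. Sharing defined by an overlap of 50% of both peaks was 63.6% and 65.7%, which is stricter by construction. Sharing by summits within 150 bp, whether or not the peaks overlapped, was 65% and 67.6%. With canonical transcripts alone, the density of exonic over intronic peaks was 0.992 for No gRNA and 0.951 for All gRNA, in place of 1.05 and 1; the cause was not tested. Median ratio scaling put the median log2 ratio of shared exonic sites at -0.0219, which follows from centring on all peaks. Low pileups limit single sites: at 8 reads, ratios near 3 have intervals from 1.25 to 8.05.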

Other observations

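Exonic peak density was compared with intronic density by chromosome. Chromosome X had 10.8 exonic peaks per Mb of eligible exon (7.3 to 15.4) in No gRNA and 10.5 (7 to 15) in All gRNA, and 12.3 and 12 intronic peaks per Mb. Chromosome 19, which holds many ZNF genes, had 15 (11.2 to 19.6) and 13.3 (9.79 to 17.7), against 17.2 and 16.5 in introns. Chromosome 3 had 24.8 (20.3 to 29.9) and 22.5 (18.2 to 27.4), against 20.1 and 20.9, with the No gRNA interval above the intronic value. Chromosome 21 had 10 peaks (13.5 per Mb, 6.48 to 24.9) and 7 peaks (9.46 per Mb, 3.8 to 19.5), against 20.7 and 20 in introns. Its All gRNA interval, on 7 peaks, lay below the intronic value, and its No gRNA interval included the intronic value. Only some chromosomes are named here, and differences between chromosomes were not tested.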
